A study of Mus musculus with 24 samples.

Results

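The genes described here are 37 transcripts of T cells, natural killer (NK) cells and innate lymphoid cells (ILCs), followed across 24 RNA-seq libraries of mouse bone marrow cells. They were taken by gene symbol from the 24421 genes counted in every library, and all 37 symbols were present. Both phospholipase C gamma enzymes, encoded by Plcg1 and Plcg2, were removed singly or together, and 2 sorted populations were sequenced from 12 mice, 3 per genotype. The populations were common lymphoid progenitors (CLPs), sorted as CD45.2+Lin-IL-7R+ cells, and B cell progenitors, sorted as CD45.2+B220+IgM-IL-7R+ cells. The genotypes were Plcg1+/+Plcg2+/+ (WT), Plcg1-/-Plcg2+/+ (G1KO), Plcg1+/+Plcg2-/- (G2KO) and Plcg1-/-Plcg2-/- (DKO), so each of the 8 groups held 3 libraries. Floxed Plcg1 was removed by MxCre, an interferon-inducible Cre that acts in haematopoietic and other cells, after 3 injections of PolyI:C into donors of 6 to 12 weeks of age, whereas Plcg2 was a conventional knockout. Donors of every genotype, WT and G2KO included, carried MxCre and received these injections. Marrow taken 3 weeks later was transplanted into lethally irradiated CD45.1+ recipients, which were analysed after 6 to 8 weeks. All libraries were therefore of transplanted cells, the number of donors was not stated, and p-values measure the spread between recipients. The strain background of the mice was mixed, 129xC57BL/6.

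T cells, NK cells and ILCs arise from the same lymphoid progenitors as B cells. The T cell receptor signals through the CD3 chains and the CD247 zeta chain, whose phosphorylated motifs recruit the kinase ZAP70, which in turn phosphorylates the adaptor LAT, a docking site for phospholipase C gamma. TCF1 (Tcf7), GATA3 and BCL11B install the T cell programme, while ID2, NFIL3, PLZF (Zbtb16), ROR alpha, T-bet (Tbx21) and EOMES act in NK cells and ILCs, and several of these genes are shared between the lineages. Some members have known roles outside them. CD25, the product of Il2ra, also appears on pre-B cells, and Ets1, Id2, Lck and Zap70 are transcribed in several haematopoietic lineages.

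The labels were checked first. Plcg2 lay between 72 and 134 CPM (counts scaled to the library's total on genes and TMM-normalized over all 24 libraries) in the 12 Plcg2-/- libraries and between 168 and 282 CPM in the other 12, with no overlap. Plcg1 did not separate its genotypes, at 56.5 to 194 CPM in the 12 Plcg1-/- libraries and 75.8 to 113 CPM in the rest, and a count over the whole gene does not test the loss of its floxed part. Il7r, encoding the receptor used in both sorts, was at 140 to 521 CPM in CLPs and 153 to 523 CPM in B cell progenitors. Xist lay between 1260 and 2410 CPM in all 12 Plcg1-/- libraries and between 23.6 and 722 CPM in the others, and the Y-linked gene Ddx3y was at 1.51 to 19.5 and 95.5 to 190 CPM, so that sex and Plcg1 genotype cannot be told apart when G1KO or DKO is compared with WT. Reads on genes numbered 4232345 to 33219995 per CLP library and 1479582 to 25057223 per B cell progenitor library, where 3 reads equal 0.0903 to 0.709 and 0.12 to 2.03 CPM, counting error alone. The share of reads outside genes was 17.9% to 45.2% in CLPs and 59.9% to 87.3% in B cell progenitors. Transcripts of 1125 olfactory receptor genes, chosen after the data were seen as a gauge of background, averaged 0.0257 to 0.347 CPM per gene in CLPs and 0.036 to 1.27 CPM in B cell progenitors, and their 95th percentile reached 2.72 CPM in the second G1KO B cell progenitor library.

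Cell type markers did not follow the CLP label in every library. Of the B lineage genes, Cd79a was at 113 to 1240 CPM in CLPs and 272 to 997 CPM in B cell progenitors, and Pax5, the factor of B cell commitment, at 39.6 to 253 and 52.8 to 225 CPM. A set of 4 CLP libraries, WT replicate 1, G1KO replicate 2, G2KO replicate 2 and DKO replicate 2, stood apart from the other 8. They were chosen, after the data were seen, as those above the widest gap in the log2 sum of 6 basophil and mast cell markers. Flt3, which defines CLPs together with Il7r, was at 200 to 772 CPM in these 4 and at 25.8 to 121 CPM in the other 8, close to the 25.7 to 112 CPM of B cell progenitors. Dntt separated them too, at 1040 to 1770 against 122 to 758 CPM. Other CLP markers overlapped between the 4 and the 8: Il7r (373 to 521 against 140 to 432 CPM), Kit (83.2 to 130 against 34.6 to 164 CPM) and Ly6a (18.7 to 34.8 against 7.31 to 57.3 CPM). The 6 basophil and mast cell markers were Cpa3, Mcpt8, Fcer1a, Prss34, Ms4a2 and Gata2. Their summed level was 5350 to 10400 CPM in the 4 libraries, 477 to 1870 CPM in the other 8 CLP libraries and 456 to 1760 CPM in B cell progenitors. The gap in this sum was set by the choice of the 4 libraries and is no separate finding. Each of the 6 markers was also higher in each of the 4 than in any of the 8, which the same choice favours. Myeloid markers, 8 genes including Mpo and Elane, summed to 2860 to 3850 CPM in the 4, 2430 to 9860 CPM in the 8 and 1360 to 8430 CPM in B cell progenitors, and 6 markers of plasmacytoid dendritic cells summed to 258 to 720, 133 to 575 and 122 to 461 CPM. Of 6 erythroid markers, whose sum was 6.47 to 181 CPM over all libraries, Hba-a1 and Hbb-b1 had no read. The population comparison averaged over genotypes and the Il2ra difference of DKO from WT in CLPs are given below with and without the 4 libraries. Other fold changes that rest on CLPs are mostly given with the 4 libraries included. The part of these other cell markers in the results was not tested. In bulk RNA, fewer cells with a transcript and less of it per cell cannot be told apart.

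Per kilobase of exon sequence, which was known for all 37 members, Ets1 was the most abundant member in both populations, with a median of 49 CPM per kb in CLPs and 47.3 in B cell progenitors. It encodes a transcription factor of T, NK and B cells. Id2, the inhibitor of E proteins, followed at 25.8 and 22.5 CPM per kb, and the next was Nfil3 at 17.4 in CLPs and Lck at 14 in B cell progenitors. Ets1 in CLPs was at 418, 541 and 456 CPM in WT, 285, 667 and 412 in G1KO, 290, 477 and 295 in G2KO, and 228, 614 and 403 in DKO. Ets1 in B cell progenitors was at 511, 604 and 520 CPM in WT, 274, 390 and 411 in G1KO, 267, 413 and 328 in G2KO, and 183, 583 and 358 in DKO. The groups overlapped between the populations, with a log2 difference of -0.01. Lck in CLPs was at 137, 48.7 and 42 CPM in WT, 28.4, 84.5 and 53.7 in G1KO, 32.5, 97.7 and 31 in G2KO, and 31.1, 54.2 and 44.1 in DKO. Lck in B cell progenitors was at 41.2, 52.1 and 44.7 CPM in WT, 26.7, 28.8 and 51.2 in G1KO, 18, 26.1 and 44.3 in G2KO, and 26.1, 50.8 and 41 in DKO. Lck, a Src family kinase that starts T cell receptor signalling, was highest in the 4 CLP libraries that stood apart. Id2 in CLPs was at 245, 47.7 and 54.9 CPM in WT, 69, 229 and 125 in G1KO, 56.3, 279 and 45 in G2KO, and 56.6, 152 and 39.5 in DKO. Id2 in B cell progenitors was at 29.2, 65.9 and 78.5 CPM in WT, 61.8, 29.8 and 90 in G1KO, 50.4, 41.4 and 41.2 in G2KO, and 60.1, 25.8 and 59.1 in DKO. Id2 showed the same 4 libraries highest, followed by the third G1KO CLP library. Medians under 10 CPM, a limit chosen after the data were seen, were found for 18 members in CLPs and 21 in B cell progenitors, among them Cd3d, Cd3e, Cd3g, Cd8a, Cd8b1, Cd5, Cd28, Gata3, Bcl11b, Tox, Tbx21, Ncr1 and all 4 effector genes in both.

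**Figure D1:**
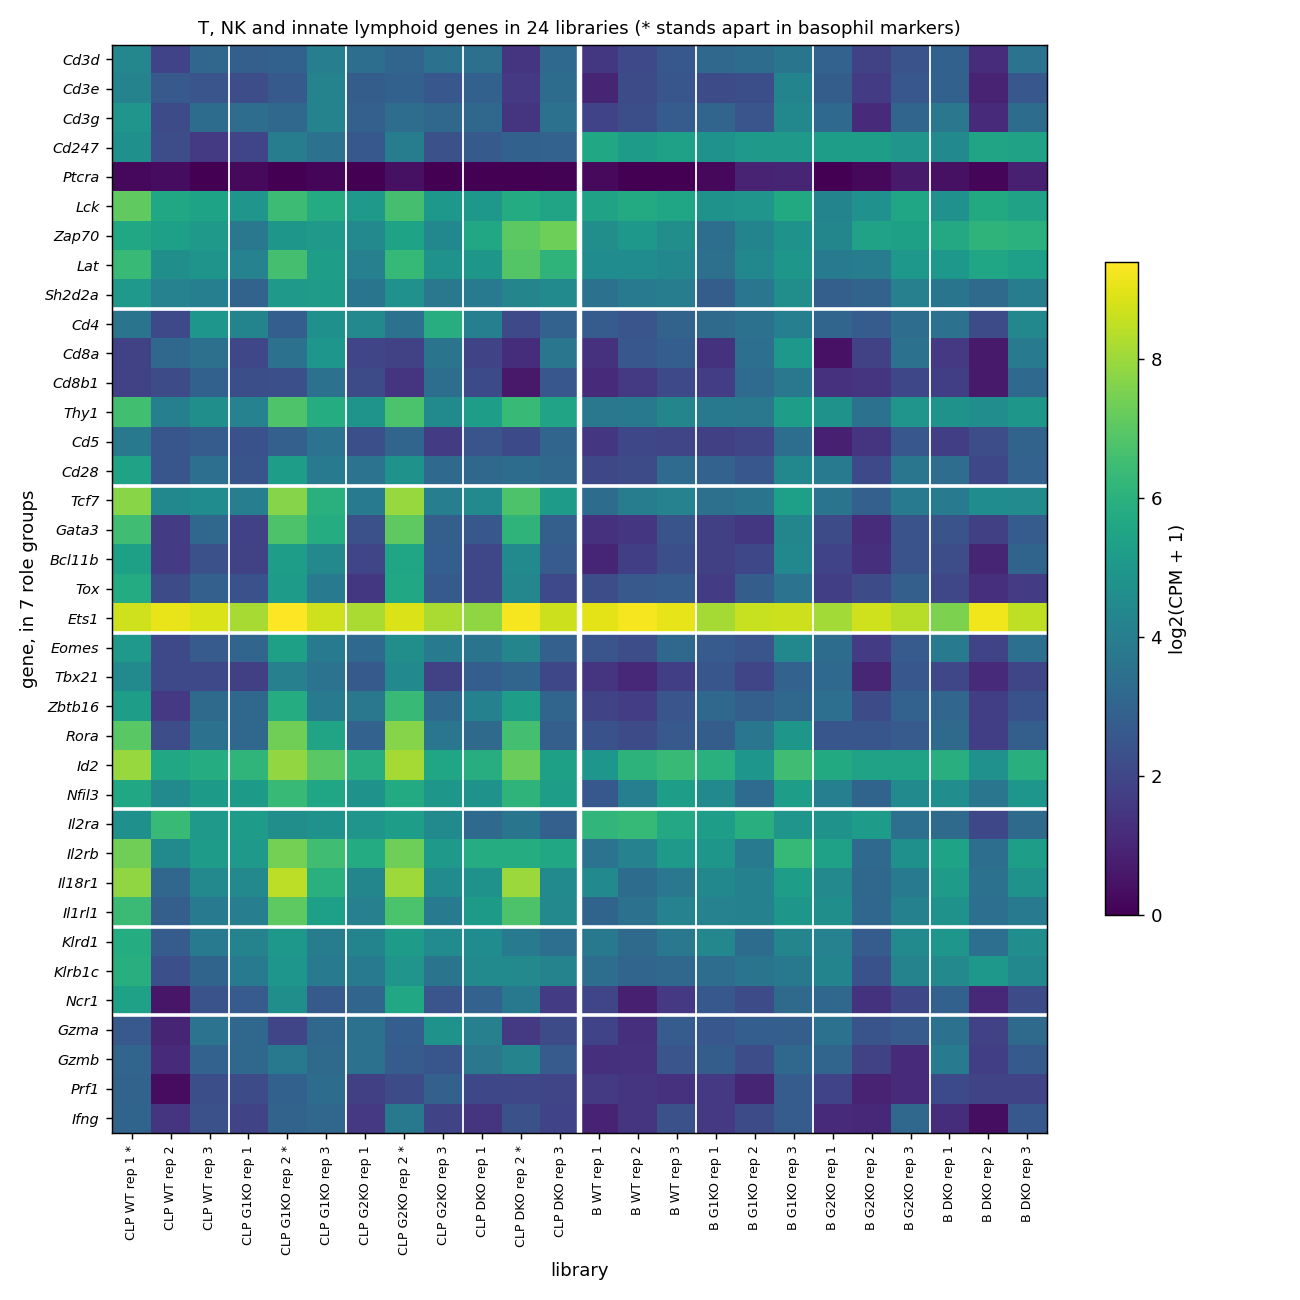
Level of each of the 37 members (rows, in 7 role groups) in each of the 24 libraries (columns; white lines part the groups, the thick line parts CLPs from B cell progenitors), as log2(CPM + 1). The 4 CLP columns with an asterisk carry the highest levels of Tcf7, Gata3, Rora and Il18r1, Cd247 is brighter in the B cell progenitor columns, and Ptcra is near 0 throughout.

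The 4 CLP libraries carried the highest CLP levels of many members. In 15 of the 37 members all 4 libraries that stood apart lay above the other 8 CLP libraries, against 5.99% of the 15209 genes tested in CLPs, and in 0 members did they all lie below. The 15 were 4 of 5 T cell specification factors (Tcf7, Gata3, Bcl11b and Tox), 5 of 6 factors of NK cells and ILCs (Eomes, Zbtb16, Rora, Id2 and Nfil3), the receptor chains Il18r1 and Il1rl1, the NK receptor Ncr1, the surface glycoprotein Thy1, and the signalling genes Lck and Lat. None of the CD3 chains, Cd4, Cd8a, Cd8b1 or the 4 effector genes was among them. Tcf7 in CLPs was at 209, 19.7 and 22.6 CPM in WT, 15.1, 203 and 60.7 in G1KO, 13.4, 243 and 15.2 in G2KO, and 21.5, 108 and 34.1 in DKO. Tcf7 in B cell progenitors was at 9.03, 14.2 and 16.9 CPM in WT, 10.1, 11.3 and 38.5 in G1KO, 11.3, 6.28 and 14.1 in G2KO, and 13.2, 22.6 and 21.8 in DKO. TCF1 is the factor through which Notch starts T cell development, and it also acts in early ILCs. Gata3 in CLPs was at 90.4, 2.19 and 7.79 CPM in WT, 2.53, 107 and 54.4 in G1KO, 3.99, 132 and 6.21 in G2KO, and 4.86, 68.6 and 6.18 in DKO. Gata3 in B cell progenitors was at 1.52, 1.78 and 4.39 CPM in WT, 2.41, 1.85 and 18.8 in G1KO, 3.52, 1.29 and 4.31 in G2KO, and 4.29, 2.46 and 5.68 in DKO. GATA3 serves T cells and group 2 ILCs. Each of the 4 libraries exceeded every B cell progenitor library for Gata3, and the third G1KO CLP library came next. Rora in CLPs was at 127, 3.65 and 10.4 CPM in WT, 7.85, 161 and 43.6 in G1KO, 6.66, 203 and 11.8 in G2KO, and 8.56, 94.4 and 6.23 in DKO. Rora in B cell progenitors was at 4.09, 3.56 and 5.08 CPM in WT, 5.79, 12 and 30.2 in G1KO, 4.69, 4.7 and 5.54 in G2KO, and 8.58, 2.33 and 6.21 in DKO. ROR alpha is required for group 2 ILCs, and the same 5 CLP libraries were its highest.

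Zbtb16 in CLPs was at 36.7, 1.95 and 8.44 CPM in WT, 7.72, 54.7 and 13.9 in G1KO, 12.4, 80.9 and 8.13 in G2KO, and 16.3, 36.2 and 7.35 in DKO. Zbtb16 in B cell progenitors was at 2.76, 2.22 and 4.62 CPM in WT, 8.04, 6.21 and 8.11 in G1KO, 9.77, 3.4 and 6.77 in G2KO, and 7.59, 2.37 and 4.1 in DKO. PLZF marks ILC precursors and innate-like T cells. Il18r1 in CLPs was at 225, 7.55 and 20.5 CPM in WT, 20.6, 351 and 61.7 in G1KO, 18.8, 255 and 22.3 in G2KO, and 27.6, 247 and 20.8 in DKO. Il18r1 in B cell progenitors was at 20.9, 8.89 and 12.5 CPM in WT, 19.8, 16.3 and 35.9 in G1KO, 20.3, 8.1 and 14.1 in G2KO, and 35, 10.2 and 26.8 in DKO. Il18r1 encodes a chain of the interleukin-18 receptor, and its 4 high CLP libraries lay clear of the remaining 20 libraries. Il1rl1, the interleukin-33 receptor gene, ends 136 bases before Il18r1 on chromosome 1 (1-based GRCm38 coordinates 40429570 to 40465415 and 40465552 to 40500854, both on the plus strand). Il1rl1 in CLPs was at 84.2, 6.09 and 14 CPM in WT, 15.3, 133 and 38.7 in G1KO, 15.8, 106 and 13.5 in G2KO, and 33.9, 108 and 20.1 in DKO. Il1rl1 in B cell progenitors was at 7.13, 10.2 and 16.9 CPM in WT, 16.9, 16.3 and 30.2 in G1KO, 24.6, 7.72 and 16.6 in G2KO, and 27.4, 9.85 and 14.1 in DKO. It followed the same libraries. Nfil3 in CLPs was at 48.7, 21.4 and 33.6 CPM in WT, 33.7, 78.4 and 45.2 in G1KO, 26.6, 51.7 and 30.2 in G2KO, and 27.1, 67 and 36.9 in DKO. Nfil3 in B cell progenitors was at 5.04, 15.6 and 36.5 CPM in WT, 20.8, 8.71 and 36.6 in G1KO, 15.6, 7.14 and 21.5 in G2KO, and 23.1, 12 and 29.6 in DKO. Nfil3, a basic leucine zipper factor needed early in ILC and NK cell development, differed less between CLP libraries and was low in several B cell progenitor libraries.

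Thy1 in CLPs was at 91.1, 15.6 and 24.2 CPM in WT, 16.7, 110 and 54.4 in G1KO, 27.7, 104 and 21.2 in G2KO, and 36.7, 79.3 and 43.5 in DKO. Thy1 in B cell progenitors was at 12.5, 12.7 and 18.3 CPM in WT, 12.7, 12.6 and 37.1 in G1KO, 26.2, 10.5 and 28.9 in G2KO, and 27.1, 23.3 and 30.5 in DKO. Thy1 codes for the Thy-1 glycoprotein of T cells, ILCs and haematopoietic progenitors. Il2rb in CLPs was at 163, 21.2 and 34.6 CPM in WT, 32.1, 170 and 89.4 in G1KO, 53, 160 and 32.5 in G2KO, and 55.4, 54.8 and 47.4 in DKO. Il2rb in B cell progenitors was at 11, 16.8 and 31.8 CPM in WT, 30.4, 13.9 and 77 in G1KO, 40.6, 8.15 and 25.2 in G2KO, and 42.3, 9.59 and 36.6 in DKO. The beta chain serves the receptors of interleukin-2 and interleukin-15, and DKO replicate 2 lay below the third G1KO CLP library. Tox in CLPs was at 53.6, 3.41 and 6.41 CPM in WT, 4.2, 34.6 and 13.2 in G1KO, 1.9, 47.7 and 5.35 in G2KO, and 3, 19.5 and 3.2 in DKO. Tox in B cell progenitors was at 3.61, 5.11 and 5.62 CPM in WT, 2.09, 5.77 and 11 in G1KO, 2.34, 3.4 and 6.15 in G2KO, and 2.97, 1.48 and 2.11 in DKO. TOX acts in T cell, NK cell and ILC development. Tbx21 in CLPs was at 21.6, 3.17 and 3.25 CPM in WT, 2.41, 15.9 and 11 in G1KO, 5.3, 21.1 and 2.57 in G2KO, and 5.96, 7.26 and 3.11 in DKO. Tbx21 in B cell progenitors was at 1.71, 1.11 and 2.31 CPM in WT, 4.67, 2.94 and 6.68 in G1KO, 8.21, 1.01 and 4.92 in G2KO, and 2.97, 1.25 and 2.91 in DKO. T-bet directs type 1 responses, and Tbx21 was low in both populations. Ncr1 in CLPs was at 40.4, 0.487 and 4.3 CPM in WT, 5.5, 24.8 and 5.29 in G1KO, 7.32, 48.8 and 4.5 in G2KO, and 6.81, 12.8 and 2.12 in DKO. Ncr1 in B cell progenitors was at 2.85, 0.778 and 1.92 CPM in WT, 4.99, 3.38 and 8.59 in G1KO, 7.82, 1.58 and 3.08 in G2KO, and 6.6, 1.08 and 3.44 in DKO. Ncr1 encodes NKp46, an activating receptor of NK cells and some ILCs. The third G1KO mouse had the highest value of the population for 5 of 37 members in CLPs and 23 in B cell progenitors. The same was not counted over all genes, so these counts cannot be called particular to the members. Those highest in both were Cd3e, Sh2d2a, Cd8a, Cd8b1 and Prf1, with Cd8a at 29.2 CPM in its CLPs and 30.9 CPM in its B cell progenitors.

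**Figure D2:**
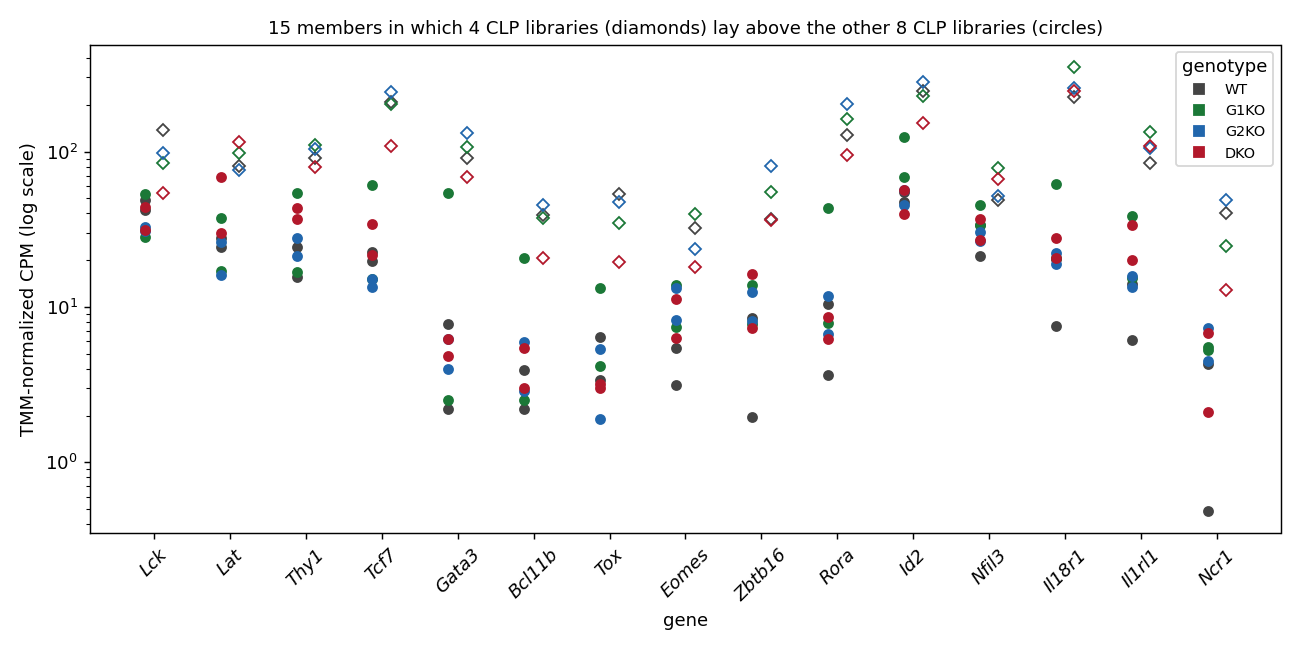
TMM-normalized CPM (log axis) of the 15 members in which the 4 CLP libraries with high basophil markers (open diamonds) all lay above the other 8 CLP libraries (filled circles), coloured by genotype. For Gata3 the diamonds sit between 68.6 and 132 CPM and the circles between 2.19 and 54.4 CPM, with 1 diamond from each genotype.

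The comparison of B cell progenitors with CLPs asked which of these genes differ between the populations, averaged over the 4 genotypes. Of 36 members tested, 16 were called (adjusted p up to 0.05, log2 difference of 0.5 or more in size), 15 of them lower and 1 higher in B cell progenitors, against 14.4% of all 17212 genes called in either direction. The median log2 fold change of the members was -0.84, against 0.08 over all genes tested. By role, 4 of 5 T cell specification factors, 5 of 6 NK cell and ILC factors, 3 of 4 cytokine receptor chains, 1 of 6 coreceptors and surface glycoproteins and 1 of 3 NK receptors were lower, and 0 of 4 effector genes were called. Of the 8 tested CD3 chain and signalling genes, 1 was lower (Lat) and 1 higher (Cd247). Gata3 had the largest difference among them, at a log2 fold change of -3.31 ± 0.78 (SE; edgeR adjusted p = 0.00339), from a mean of 40.5 CPM in CLPs to 4.36 CPM in B cell progenitors. Rora differed by -2.99 ± 0.70 (edgeR adjusted p = 0.00336), Il18r1 by -2.44 ± 0.62 (edgeR adjusted p = 0.00586), Tcf7 by -2.31 ± 0.55 (edgeR adjusted p = 0.00362) and Zbtb16 by -2.10 ± 0.47 (edgeR adjusted p = 0.00226). The remaining 10 members called lower, Bcl11b, Tox, Ncr1, Il1rl1, Tbx21, Il2rb, Thy1, Nfil3, Id2 and Lat, had log2 fold changes of -1.97 to -0.99.

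The calls of lower members depended on the 4 CLP libraries that stood apart. In all, 13 of the 15 members called lower were among those in which all 4 exceeded the other 8, the exceptions being Il2rb and Tbx21. Without the 4 libraries, 0 of those 15 members were called and their log2 fold changes lay between -1.07 and -0.16. In that fit 2 members were called, Cd247 and Cd4, and 6.24% of all genes. Cd4 was lower in B cell progenitors by 1.21 ± 0.35 on the log2 scale (SE; edgeR adjusted p = 0.0279), with CLP levels of up to 56.3 CPM in the third G2KO library, and it had not been called with all libraries (-0.80 ± 0.38, edgeR adjusted p = 0.11). Because both populations were sorted from the same mouse, the comparison was also fitted with the mouse as a block. That fit called 10 members and 12.3% of genes, Cd247 higher and Tcf7, Gata3, Rora, Zbtb16, Thy1, Lat, Nfil3, Cd5 and Sh2d2a lower, with Gata3 at -2.57 ± 0.85 (edgeR adjusted p = 0.0373). With the block and without the 4 mice, Cd247, Gata3, Zbtb16 and Cd4 were called with 6.61% of genes, Gata3 at -0.52 ± 0.18 (edgeR adjusted p = 0.025) and Zbtb16 at -0.51 ± 0.16 (edgeR adjusted p = 0.0127).

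**Figure D3:**
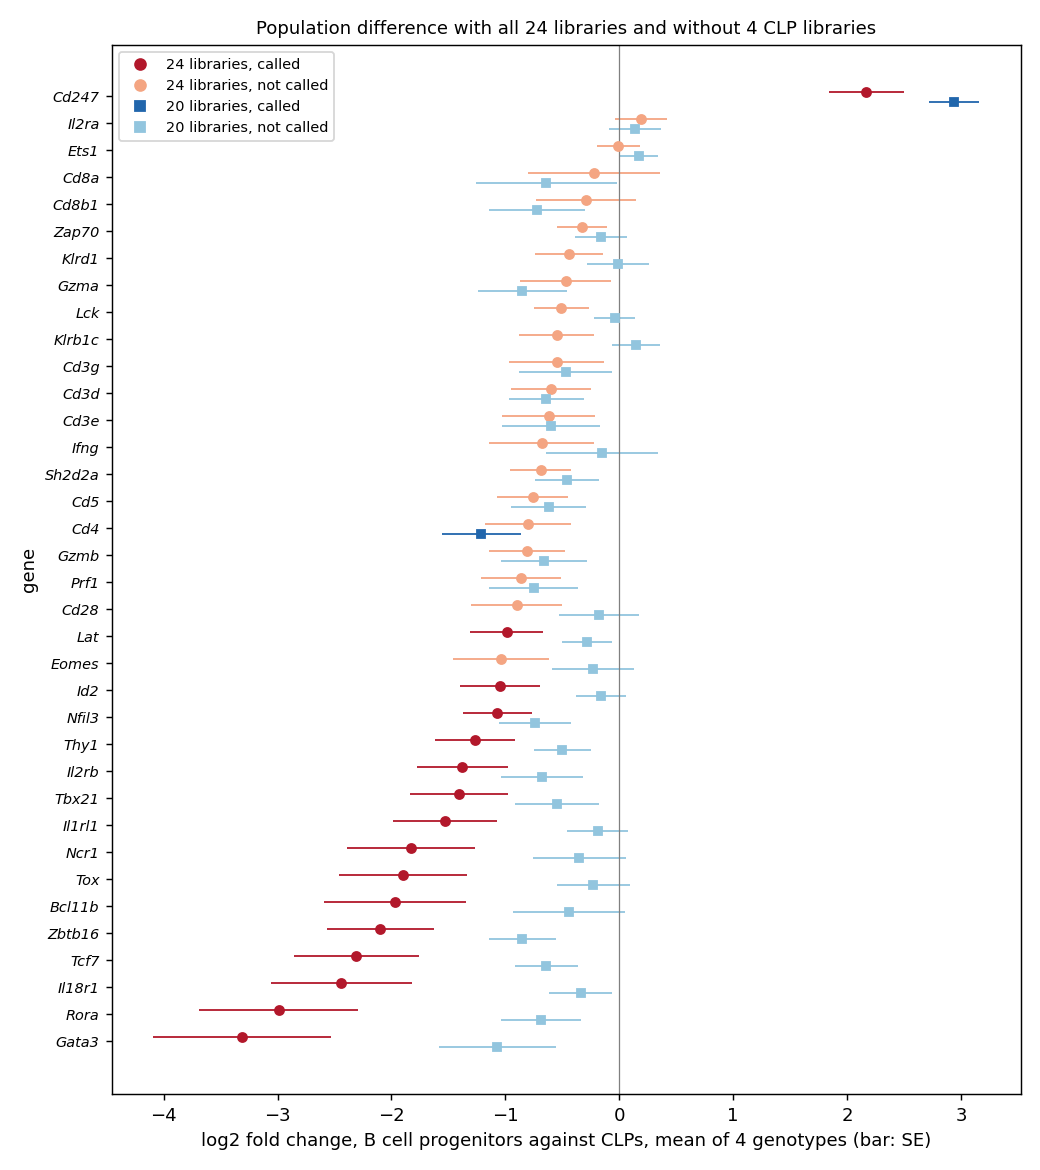
Log2 fold change of the 36 members tested between B cell progenitors and CLPs (mean of 4 genotypes; bars are SE), with all 24 libraries (circles) and without the 4 CLP libraries that stood apart (squares); dark symbols were called. Gata3 moves from -3.31 to -1.07 and Rora from -2.99 to -0.69, while Cd247 moves from 2.17 to 2.94.

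Within single genotypes the same comparison called 0 members in WT, where 3.5% of genes were called, 0 in G1KO (3.78% of genes), 0 in G2KO (3.21%) and 1, Cd247, in DKO (3.24%). At an unadjusted p of at most 0.05 there were 15 of 36 members in WT, 1 in G1KO, 7 in G2KO and 2 in DKO, against 16.1%, 26.5%, 16.2% and 14.3% of all genes. DESeq2 called 2 (Cd247 and Tbx21), 1, 1 and 1 (Cd247 in each). The share of all genes called by DESeq2 is not given, so its counts of members here and below have no background beside them. With the mouse as a block, Cd247 was called in each genotype, against 2.98% to 3.6% of genes. Its DKO call (2.56 ± 0.67, edgeR adjusted p = 0.0344) was lost without any 1 of the 3 CLP DKO libraries or B cell progenitor DKO replicates 2 and 3, with log2 fold changes of 2.40 to 2.63, and of the 6 WT libraries left out in turn, leaving out CLP replicate 1 brought a call in WT. The difference of the population effect between DKO and WT was called for 0 members and 0% of genes by edgeR, with 0 members and 1.37% of genes at an unadjusted p of at most 0.05, and for 0 members by DESeq2.

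Cd247, which encodes the zeta chain of the T cell receptor complex, was the 1 member higher in B cell progenitors. Cd247 in CLPs was at 25.3, 3.65 and 2.03 CPM in WT, 2.9, 14.4 and 10.5 in G1KO, 5.06, 14.8 and 4.07 in G2KO, and 5.31, 6.63 and 6.66 in DKO. Cd247 in B cell progenitors was at 47, 34.5 and 40.7 CPM in WT, 27, 32.8 and 32.6 in G1KO, 36.3, 37.8 and 28.9 in G2KO, and 20.8, 44 and 41.5 in DKO. The lowest B cell progenitor value, DKO replicate 1, was below the highest CLP value, WT replicate 1, and all other B cell progenitor libraries lay above all CLP libraries. The log2 fold change was 2.17 ± 0.33 (SE; edgeR adjusted p = 5.71e-05), or 4.49-fold, and 2.94 ± 0.22 without the 4 CLP libraries (edgeR adjusted p = 1.82e-08). Cd247 lies on chromosome 1 at 165788681 to 165877277, plus strand (GRCm38), and 3007 bases of its exons between 165866655 and 165877065 are also exons of Pou2f1 on the minus strand, as annotated by GENCODE. It was the 1 member of 37 with such an overlap with another counted gene. Pou2f1, the gene of the factor OCT1, was at 60.6 to 83.4 CPM in CLPs and 71 to 161 CPM in B cell progenitors (log2 fold change 0.73 ± 0.10, edgeR adjusted p = 2.12e-05). Over all tested genes with an annotation, 19.1% of the 2988 whose exons overlap an exon of another counted gene on the opposite strand were called higher in B cell progenitors, against 5.86% of the 13589 without, and 4.75% against 6.36% were called lower. Reads the counting set aside as ambiguous made up 1.06% to 1.44% of reads in CLP libraries and 0.11% to 0.42% in B cell progenitor libraries, and the strand setting of the counting was not given in the sources used here. Population and the shares of reads outside genes and set aside cannot be told apart, and neither can reads of Cd247 and Pou2f1 in the shared exons without the strand setting.

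The window of 300 bases around the RefSeq start of Cd247, 250 before and 50 after it, is shown because Cd247 was the 1 member higher in B cell progenitors. Capitals mark the letters GGAAGT, the core of ETS factor sites, or their reverse complement (GRCm38.p6, chr1:165788431-165788730, plus strand).
Cd247: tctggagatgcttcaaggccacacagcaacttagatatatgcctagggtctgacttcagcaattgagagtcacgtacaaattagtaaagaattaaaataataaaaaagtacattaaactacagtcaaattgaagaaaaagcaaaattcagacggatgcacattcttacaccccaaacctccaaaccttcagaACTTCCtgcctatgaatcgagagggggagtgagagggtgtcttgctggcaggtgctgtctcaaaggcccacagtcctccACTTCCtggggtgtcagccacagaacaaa
The window of Gata3, the member with the largest fall between CLPs and B cell progenitors, is shown with the E-box letters CAGCTG in capitals (GRCm38.p6, chr2:9878551-9878850, minus strand). It had a GC content of 67.3%, against 43.7% for Cd247.
Gata3: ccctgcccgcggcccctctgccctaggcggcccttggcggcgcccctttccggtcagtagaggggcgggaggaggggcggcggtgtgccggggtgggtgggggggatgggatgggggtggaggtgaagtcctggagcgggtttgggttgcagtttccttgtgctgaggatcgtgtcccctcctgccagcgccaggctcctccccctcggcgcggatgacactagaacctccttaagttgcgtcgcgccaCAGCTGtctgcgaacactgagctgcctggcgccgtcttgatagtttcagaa

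Loss of both enzymes was compared with WT in each population. In B cell progenitors 1 of 36 members tested was called, the fall of Il2ra, against 0.893% of 15001 genes. The median log2 fold change of the members was 0.60, against -0.0178 over all genes tested, with 29 positive and 7 negative values. Markers of other cells had positive values too, with medians of 0.89 for the 8 myeloid markers (0.59 to 1.55), 0.86 for the 6 basophil and mast cell markers (0.57 to 1.23) and 0.79 for the 6 plasmacytoid dendritic cell markers (0.48 to 1.11). These lists held 0 called genes, and their part in the members' values was not tested. The members' median was -0.505 in DKO against WT CLPs, with 9 positive and 27 negative values. Against G1KO the DKO median was -0.448 in B cell progenitors (9 positive, 27 negative) and -0.677 in CLPs (5 positive, 31 negative). Both CLP medians include libraries that stood apart and are not given without them. The summed level of all 37 members in CLPs was 2550, 960 and 991 CPM in WT and 819, 2130 and 1100 CPM in DKO. WT replicate 1 and DKO replicate 2 were among the libraries that stood apart. In CLPs 0 of 36 were called by edgeR, against 0.0921% of 15209 genes, with 2 members and 7.52% of genes at an unadjusted p of at most 0.05 and 1 member, Il2ra, called by DESeq2. Il2ra in CLPs was at 25.1, 78.4 and 32.2 CPM in WT, 34.7, 24 and 27.6 in G1KO, 28.5, 37.6 and 21.6 in G2KO, and 8.26, 11.6 and 6.27 in DKO. Il2ra in B cell progenitors was at 70.7, 76.7 and 49.4 CPM in WT, 36.4, 58.1 and 28.9 in G1KO, 27.4, 34.9 and 9.84 in G2KO, and 8.58, 3.09 and 8.46 in DKO. All 3 DKO libraries lay below the libraries of every other genotype in each population, and the B cell progenitor DKO libraries were the 3 lowest of 12. Il2ra fell by 3.40 on the log2 scale in DKO B cell progenitors (SE 0.51, edgeR adjusted p = 0.00818), a 10.6-fold difference, and this was called in all 12 alternatives tried, with log2 fold changes of -3.74 to -2.94. In CLPs the difference from WT was -2.41 ± 0.42 with an edgeR adjusted p of 0.0832 that missed the threshold. Without the 4 CLP libraries that stood apart it was -2.98 ± 0.40 and was called (edgeR adjusted p = 0.0262), and without WT replicate 1 alone it was -2.74 with an adjusted p of 0.0257. With each of the 6 libraries left out in turn it ranged from -2.74 to -1.72, with edgeR adjusted p from 0.0257 to 0.436.

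Against G1KO, which shares the Xist level of DKO, Il2ra differed by -2.89 ± 0.50 in B cell progenitors (edgeR adjusted p = 0.0465), the 1 member called there against 0.213% of genes. That call was lost when any of the 6 libraries was left out, when RLE size factors were used (edgeR adjusted p = 0.0559) and when the 2 groups were fitted alone (edgeR adjusted p = 0.214), with log2 fold changes of -3.21 to -2.41 throughout. In CLPs the DKO libraries differed from G1KO by -1.75 ± 0.41 for Il2ra (edgeR adjusted p = 0.355), 0 members and 0.0263% of genes were called by edgeR, 2 members and 4.29% of genes had an unadjusted p of at most 0.05, and DESeq2 called 2, Il2ra and Zap70. The B lineage gene Cd79a was at 377, 851 and 1240 CPM in DKO CLPs and 113, 904 and 607 CPM in WT CLPs. In B cell progenitors Cd79a was at 272, 997 and 644 CPM in DKO and 492, 685 and 477 CPM in WT, so that the groups overlapped in both populations. Other B lineage genes did not all go one way. Pax5 in B cell progenitors was at 52.8, 160 and 109 CPM in DKO, below the 169, 225 and 162 CPM of WT, whereas Igll1 was at 403, 1350 and 973 CPM in DKO and 467, 516 and 324 CPM in WT. The part of cell composition in the Il2ra difference was not tested.

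The start of Il2ra, on chromosome 2 at 11642807 to 11693193, plus strand, is shown because this gene carried the genotype result. Capitals mark GGAAGT on either strand (GRCm38.p6, chr2:11642542-11642841, plus strand).
Il2ra: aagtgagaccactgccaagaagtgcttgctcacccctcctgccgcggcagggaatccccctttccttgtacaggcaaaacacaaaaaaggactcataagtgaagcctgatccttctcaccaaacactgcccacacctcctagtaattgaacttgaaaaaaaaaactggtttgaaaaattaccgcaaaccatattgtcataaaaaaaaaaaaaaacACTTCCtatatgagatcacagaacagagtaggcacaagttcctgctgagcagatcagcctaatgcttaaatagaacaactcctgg

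**Figure D4:**
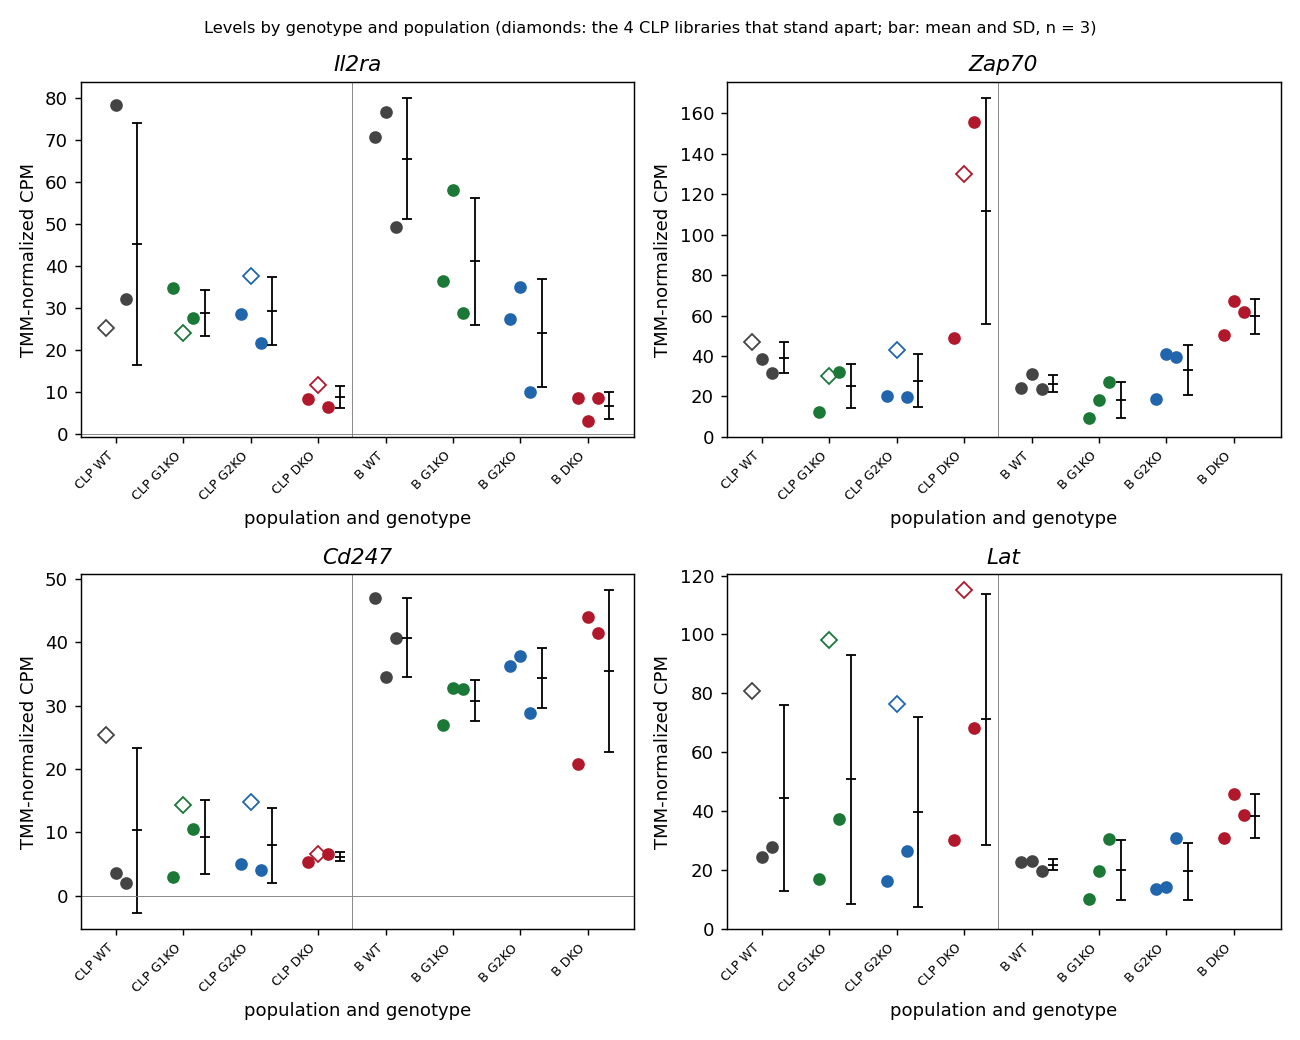
TMM-normalized CPM of Il2ra, Zap70, Cd247 and Lat in each library by population and genotype, with the mean and SD of 3 libraries beside the points; open diamonds are the 4 CLP libraries that stood apart. The 6 DKO points of Il2ra lie between 3.09 and 11.6 CPM, below the 49.4 to 76.7 CPM of WT B cell progenitors, and those of Zap70 lie between 49 and 156 CPM, above every WT point.

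Zap70, the kinase recruited by the CD3 and zeta chains, had differences of the opposite sign that did not pass the test. Zap70 in CLPs was at 47.1, 38.5 and 31.7 CPM in WT, 12.4, 30.3 and 32.2 in G1KO, 20.3, 42.9 and 19.9 in G2KO, and 49, 130 and 156 in DKO. Zap70 in B cell progenitors was at 24, 31.2 and 23.8 CPM in WT, 9.49, 18 and 27 in G1KO, 18.8, 41.1 and 39.4 in G2KO, and 50.2, 67 and 62 in DKO. The DKO libraries lay above all libraries of the other 3 genotypes in each population. The log2 fold change of DKO against WT was 1.17 ± 0.36 in B cell progenitors (edgeR adjusted p = 0.196) and 1.48 ± 0.46 in CLPs (edgeR adjusted p = 0.408), and against G1KO it was 1.55 ± 0.37 (edgeR adjusted p = 0.15) and 2.15 ± 0.47 (edgeR adjusted p = 0.292). DESeq2 called it in B cell progenitors against WT (1.17 ± 0.37, adjusted p = 0.0437) and G1KO (adjusted p = 0.00522) and in CLPs against G1KO (adjusted p = 0.00112). Zap70 spans 36761798 to 36782818 on the plus strand of chromosome 1. Its first annotated start is shown for comparison with Il2ra, the member that fell in DKO. No letters are in capitals because none of the 5 motifs searched occurs in it (GRCm38.p6, chr1:36761548-36761847, plus strand).
Zap70: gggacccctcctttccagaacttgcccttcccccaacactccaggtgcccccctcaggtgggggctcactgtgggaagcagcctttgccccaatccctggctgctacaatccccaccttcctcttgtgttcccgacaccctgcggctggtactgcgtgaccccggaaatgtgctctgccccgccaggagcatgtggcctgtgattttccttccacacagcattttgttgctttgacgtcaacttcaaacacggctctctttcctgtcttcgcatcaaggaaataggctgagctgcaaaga

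Klrb1c in CLPs was at 58.6, 3.9 and 7.06 CPM in WT, 13.8, 29.8 and 13.8 in G1KO, 13.2, 28.8 and 11.1 in G2KO, and 21.1, 20.6 and 17.3 in DKO. Klrb1c in B cell progenitors was at 9.41, 7.45 and 7.85 CPM in WT, 9.33, 11.3 and 12.9 in G1KO, 18, 4.17 and 17.2 in G2KO, and 20.5, 31.1 and 19.9 in DKO. Klrb1c encodes the NK1.1 antigen and belongs to a family of similar genes, between which short reads may be hard to assign. Its difference in DKO B cell progenitors, where all 3 libraries lay above the WT libraries, was 1.51 ± 0.42 (edgeR adjusted p = 0.146). DESeq2 gave the same size with an adjusted p of 0.0244. In CLPs the Klrb1c difference over all libraries was -0.27 ± 0.76 (edgeR adjusted p = 0.948). WT replicate 1, among the 4 CLP libraries that stood apart, was at 58.6 CPM. The other WT CLP libraries, at 3.9 and 7.06 CPM, lay below all 3 DKO libraries, as in B cell progenitors. Lat, the adaptor that binds phospholipase C gamma in T cells, was at 30.7, 45.8 and 38.7 CPM in DKO and 22.8, 22.9 and 19.7 CPM in WT B cell progenitors, a log2 difference of 0.80 ± 0.38 with an edgeR adjusted p of 0.416.

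**Figure D5:**
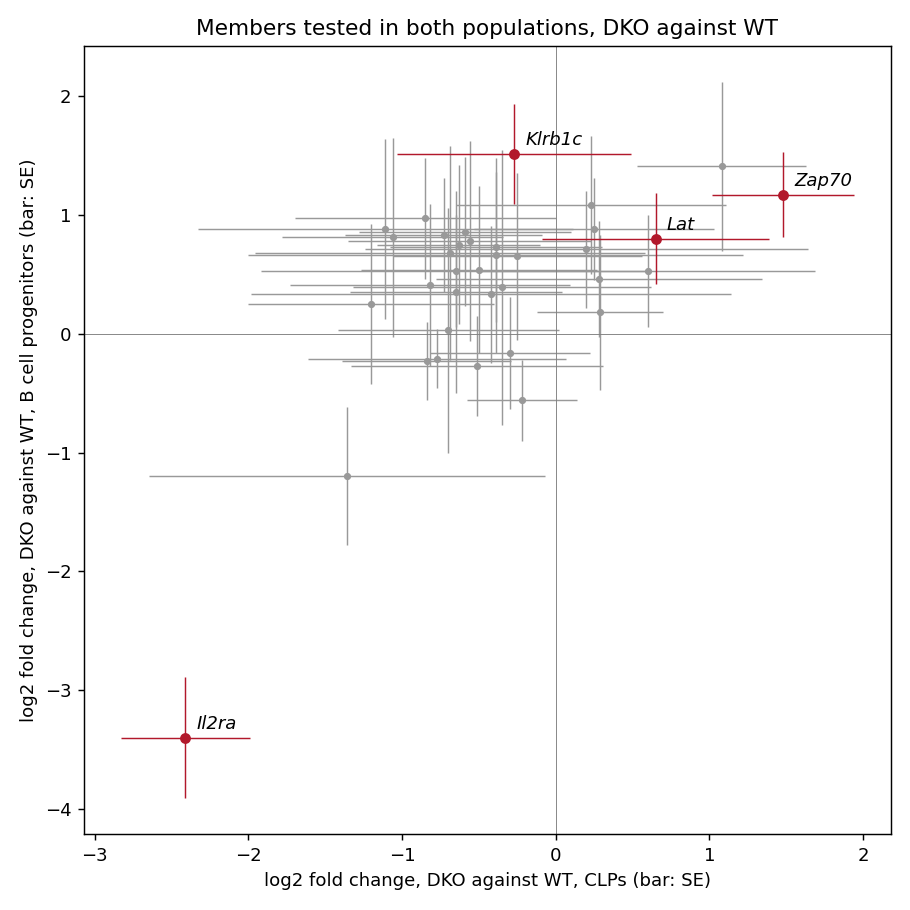
Log2 fold change of DKO against WT for the 36 members tested in both populations, CLPs on the horizontal and B cell progenitors on the vertical axis (bars are SE). The libraries of both axes come from the same mice; Il2ra sits at -2.41 and -3.40, Zap70 at 1.48 and 1.17, and no other member lies as far from 0 as Zap70 in both populations.

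The single deficiencies called 0 members by edgeR and 0 by DESeq2 in either population. In CLPs, G1KO against WT had 0.00658% of genes called and 0 members had an unadjusted p up to 0.05, as 2.85% of genes did. G2KO against WT had 0% of genes called and 0 members with such a p, against 3.92% of genes. The members with the smallest unadjusted p were Il2ra and Gzmb in G1KO (-0.66 ± 0.40 and 0.83 ± 0.55) and Il2ra and Gzma in G2KO (-0.62 ± 0.40 and 1.30 ± 0.90). Gzmb in CLPs was at 7.45, 1.22 and 6.72 CPM in WT, 7.78, 12.8 and 8.38 in G1KO, 10.2, 5.7 and 4.71 in G2KO, and 12.1, 17.2 and 5.45 in DKO. Gzmb in B cell progenitors was at 1.43, 1.56 and 4.54 CPM in WT, 5.79, 3.7 and 7.79 in G1KO, 7.43, 2.49 and 1.23 in G2KO, and 13.5, 2.33 and 5.28 in DKO. Granzyme B is a killing protease of cytotoxic lymphocytes, and its G1KO CLP libraries all lay above the WT ones. Gzma in CLPs was at 5.1, 0.974 and 11 CPM in WT, 7.91, 2.89 and 7.98 in G1KO, 10.7, 6.07 and 27.2 in G2KO, and 16, 2 and 3.46 in DKO. Gzma in B cell progenitors was at 2.66, 1.45 and 5.7 CPM in WT, 4.83, 5.99 and 6.2 in G1KO, 10.2, 4.36 and 5.54 in G2KO, and 10.6, 2.51 and 8.59 in DKO. Granzyme A is another such protease. The Gzma difference of G2KO from WT in CLPs was 0.48 without the third G2KO library and 2.16 without WT replicate 3, and that of Gzmb in G1KO was 0.45 without WT replicate 2. The highest levels were 27.2 CPM for Gzma in the third G2KO and 17.2 CPM for Gzmb in the second DKO CLP library.

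In B cell progenitors, G1KO against WT had 0.06% of genes called and 8 of 36 members at an unadjusted p of at most 0.05, all higher in G1KO, against 9.93% of genes at that p, with a median log2 fold change of 0.97 over the members and 0.06 over all genes tested. Rora and Zbtb16 had the smallest p, with log2 fold changes of 2.05 ± 0.57 and 1.33 ± 0.48 (both edgeR adjusted p = 0.467). For Rora the third G1KO library held the highest B cell progenitor value, 30.2 CPM, and without it the Rora difference was 1.23 ± 0.52. The 8 myeloid markers had positive log2 differences as well, with a median of 0.97 (0.76 to 1.20), as did the 6 basophil and mast cell markers, with a median of 0.48 (0.36 to 0.65), and 0 of these were called. Cd79a was at 280, 344 and 308 CPM and Pax5 at 108, 148 and 112 CPM in G1KO, all below WT. Background differed too. The share of reads outside genes was 66.5%, 87.3% and 73.6% in the G1KO and 71.4%, 62.5% and 59.9% in the WT libraries. The 95th percentile of the olfactory receptor genes was 0.643, 2.72 and 0.954 CPM in G1KO and 0.856, 0.334 and 0.154 CPM in WT. The part of these cell markers and of background in the members' values was not tested. G2KO against WT had 0.0467% of genes called and 2 members with an unadjusted p up to 0.05, against 2.84% of genes, Il2ra at -1.24 ± 0.46 and Zbtb16 at 1.09 ± 0.50 (both edgeR adjusted p = 0.919). The difference of -1.24 for Il2ra in G2KO carried an interval of 2 SE from -2.16 to -0.33, and that of -0.52 in G1KO from -1.39 to 0.36.

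The CD3 chains were low in both populations. Cd3d, Cd3e and Cd3g, which lie side by side on chromosome 9 with gaps of 1.35 and 11.4 kb, were at 1.63 to 19.3, 1.91 to 17.5 and 1.63 to 29.1 CPM in CLPs and at 1.3 to 11.4, 0.851 to 17.8 and 1.16 to 20 CPM in B cell progenitors. Ptcra, the pre-T cell receptor alpha chain of thymocytes, had 46 reads over all 24 libraries and 0 reads in 9 of them, and it was the 1 member left out of every test by the filter on low counts. Cd4 was at 3.17 to 56.3 CPM in CLPs and 3.58 to 19.7 CPM in B cell progenitors, and Cd8a and Cd8b1, 35.9 kb apart on chromosome 6, at 1.36 to 29.2 and 0.545 to 10.2 CPM in CLPs. Cd5 and Cd28 reached 12.9 and 41.9 CPM, both in WT CLP replicate 1. Sh2d2a, a T cell adaptor, was at 6.92 to 34.2 CPM in CLPs and 5.79 to 24 CPM in B cell progenitors. Bcl11b was at 20.7 to 45.4 CPM in the 4 CLP libraries that stood apart and at 2.19 to 20.6 CPM in the other 8, and Eomes at 18.1 to 39.7 and 3.17 to 13.9 CPM. Klrd1, the CD94 subunit of NK cell receptors, was at 5.6 to 55.7 CPM in CLPs and 5.66 to 29.4 CPM in B cell progenitors, and perforin (Prf1) and interferon gamma (Ifng) did not exceed 13 CPM anywhere.

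A further 64 genes of the same pathways, chosen as lists of 20 T cell receptor signalling and surface genes, 11 Notch and T lineage regulators, 16 ILC genes and 17 NK cell genes, were read beside the members. The lists were chosen with earlier results of these data known, so their counts beside the share of all genes are no independent test. In B cell progenitors against CLPs 29 of 63 tested were called against 14.4% of all genes, all lower: 11 of 20 signalling and surface genes, 5 of 11 regulators, 8 of 16 ILC genes and 5 of 16 NK cell genes. The signalling and surface genes included Fyn, Lcp2, Cd27, Skap1, Grap2 and Cd226, and the regulators were Notch1, Runx3, Zbtb7b, Tox2 and Ikzf2. The ILC genes included Icos, Arg1, Il17rb, Cxcr6 and Pdcd1, and the NK cell genes were Klrk1, Ccl5, Xcl1, Cd244 and Il12rb1. Among the values were those of Icos (-2.95 ± 0.75), Il17rb (-2.25 ± 0.55) and Arg1 (-2.91 ± 0.70), genes of type 2 ILCs, and Notch1 (-0.85 ± 0.22), with edgeR adjusted p between 0.00413 and 0.0061. All 4 CLP libraries that stood apart lay above the other 8 for 8, 5, 5 and 2 genes of the 4 lists, and 1 call of 62, Runx3, was left without those libraries, where 6.24% of all genes were called. With the mouse as a block 19 of 63 were called lower and 2 higher, against 12.3% of all genes. In DKO against WT B cell progenitors 4 of 57 tested were called against 0.893% of all genes, all lower: Rasgrp1, a Ras activator that binds diacylglycerol (-2.67 ± 0.50, edgeR adjusted p = 0.0271), the surface molecule Cd2 (-1.95 ± 0.39, edgeR adjusted p = 0.0386), the Notch target Dtx1 (-3.75 ± 0.49, edgeR adjusted p = 0.00459) and Lmo4 (-1.43 ± 0.24, edgeR adjusted p = 0.0167). Rasgrp1 was also lower in DKO CLPs (-1.60 ± 0.24, edgeR adjusted p = 0.0375), the 1 call of 62 tested there against 0.0921% of all genes, and Dtx1 was lower in DKO against G1KO B cell progenitors (-3.46 ± 0.49, edgeR adjusted p = 0.0323), where 0.213% of all genes were called. The other 10 comparisons called 0 of these genes by edgeR.

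RefSeq start windows of 300 bases were at hand for 27 of the 37 members, and 5 short motifs were searched on both strands. The ETS core GGAAGT occurred in a window of 14 members, against 26.5% of the 27025 genes with a window; the 14 were Cd3d, Cd3e, Cd247, Lck, Zap70, Cd5, Tcf7, Bcl11b, Tbx21, Il2ra, Il18r1, Il1rl1, Klrb1c and Prf1, in Zap70 at a later start than the one shown. The Runx letters TGTGGT occurred in 10 of 27 members (18.9% of genes), the E-box CAGCTG in 10 (18.3%), the STAT letters TTCNNNGAA in 4 (9.55%) and the GATA letters AGATAA in 2 (12.7%). Letters of different motifs can share bases, genes with several starts had several windows, and the counts describe these windows without a test. The members without a window here were Sh2d2a, Cd4, Cd8b1, Thy1, Cd28, Tox, Ets1, Zbtb16, Il2rb and Klrd1.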

How the data were processed

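Poly(A) RNA of 24 sorted cell samples was sequenced, and the authors deposited raw read counts per gene symbol for each library, which they made after alignment with STAR 2.5.0a to mm10. The counting program and its strand setting were not given in the sources used here. Summary lines that name no gene were left out of library sizes and tests, and their share is given with the depths. Groups came from the sample labels. The counts were normalized by TMM, filtered with filterByExpr and tested with edgeR 4.0.16 (quasi-likelihood, R 4.3.3), with 1 fit of 12 libraries per population for genotypes and 1 fit of 24 libraries for populations. Benjamini-Hochberg adjustment ran over all genes tested. Calls needed an adjusted p up to 0.05 and a log2 difference of 0.5 or more in size. SE is the log2 fold change divided by the square root of F. DESeq2 1.42.0, RLE size factors, no filter, blocks and left-out libraries were alternatives. CLPs and B cell progenitors with the same number in 1 genotype came from the same mouse, and their deviations from group means correlated at 0.117 on average over 12 pairs. Values in every library were given for the called members of smallest adjusted p (14 at most), the 3 of highest level per length in each population and the 2 of smallest p in each genotype comparison, and pathway genes outside the members were named where called, except that some are not reported here. Further values were chosen after they were seen. No 2 libraries of a group agreed within sampling noise. Members and lists were chosen with earlier results of these data known. Positions came from GENCODE on GRCm38. The scripts were tested on simulated data.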

Additional observations from a re-analysis of the deposited data

How the results depend on the processing

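Of 207 recomputed counts of called members over 14 comparisons, 166 stayed within 1.5 times the reported count. The counts below stand without the share of all genes called in the same setting. Whether members moved apart from other genes was not tested. For B cell progenitors against CLPs over 4 genotypes, 16 members became 10 with the mouse as a block, 2 without the 4 CLP libraries that stood apart, 4 with the block and without those 4 mice, and 11 to 23 when 1 library was left out. For that comparison in WT, 0 became 2 with DESeq2, 1 with the block, 1 without the 4 libraries and 2 with both changes, and 0 to 1 with 1 library left out. In G1KO and in G2KO, 0 became 1 with DESeq2, 1 with the block, 1 without the 4 libraries and 2 with both. In DKO, 1 became 5 with both, and 0 to 1 with 1 library left out. CLP DKO against WT went from 0 to 1 with no filter, with DESeq2, under a block on replicate number and without the 4 libraries, and to 0 to 1 with 1 library left out. CLP DKO against G1KO went from 0 to 2 with DESeq2. B cell progenitor DKO against WT went from 1 to 3 with DESeq2, 3 with the 2 groups alone and 2 under a block on replicate number. Against G1KO, 1 became 0 with RLE size factors, 2 with DESeq2, 0 with the 2 groups alone, 2 under a block on replicate number, and 0 to 0 with 1 library left out.

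Among 710 recomputed log2 fold changes of named members, 636 kept direction and call, 58 lost the call, 11 gained it and 5 changed sign. The last were Il1rl1 (0.16), Id2 (0.15) and Bcl11b (0.07) between populations with the mouse block and without the 4 mice, and Il2ra in CLPs without WT replicate 2, at 0.01 for G1KO and 0.05 for G2KO. With 1 library left out, these Il2ra differences ranged from -0.99 to 0.01 and from -0.95 to 0.05. WT replicate 2 held the highest CLP level of Il2ra, at 78.4 CPM, against 25.1 and 32.2 CPM in the other WT CLP libraries. The cause of that level was not tested, nor that of the other changes of sign. Between genotypes the replicate number was only a shared number, since same-numbered samples correlated from -0.224 to 0.646 in CLPs and from -0.521 to 0.714 in B cell progenitors. The shallowest B cell progenitor library, at 1479582 reads, limits the members of few reads. The settings without the 4 libraries or their mice were chosen after seeing the data.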
